A study of Mus musculus with 9 samples.

Results

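The transcripts described here are those of 41 genes that copy DNA in S phase, as measured by RNA-seq in 3 subsets of mouse splenic B cells. The genes were chosen by symbol: each of the 41 listed symbols was looked up in the deposited table, which has 24459 rows for 23954 distinct symbols, and each was found on exactly 1 row. The rule uses the symbols alone and no measured level, but the list of symbols was chosen with earlier results of these data known. Each subset was sorted 3 times from pools of 5 untreated mice of 8 to 10 weeks, which gave 3 libraries per subset and 9 in all. The labels give the strain as C57/BL6 and name no deletion, transgene or treatment in any subset. Follicular (FO) B cells carried the gate B220+IgMintCD21intCD23+CD93- and were high for IgD, the BDL subset shared that gate but was low or negative for IgD, and marginal zone (MZ) B cells carried the gate B220+IgMhiCD21hiCD23-CD93-. The sample titles carry 3 dates, each shared by 1 library of every subset and used here to number the replicates, and the labels do not say what was done on them. The 3 libraries of a subset were separate sorts, so the spread between them holds both biological and technical variation.

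A cell copies its genome once per division. Before S phase the origin recognition complex, with Cdc6 and Cdt1, loads a ring of the proteins Mcm2 to Mcm7 onto DNA as an inactive helicase. Cdc45 and the GINS complex then switch the ring on, primase and the DNA polymerases synthesise the new strands, and the sliding clamp Pcna, opened and closed by the RFC complex, holds the polymerases on the template. Flap endonuclease and ligase join the short pieces of the lagging strand, ribonucleotide reductase and related enzymes supply the building blocks, and chromatin assembly factor 1 puts new histones behind the fork. Many of these genes are transcribed under E2F factors as a cell leaves its resting state, yet some of the proteins also serve DNA repair, and several transcripts are present in resting lymphocytes. Naive splenic B cells are mostly resting.

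Levels are given in FPKM, fragments per kilobase of transcript and scaled to the mapped fragments of the library, which allows levels of different genes to be set side by side. The deposited table holds no counts. From the step size of low values the libraries were estimated to hold between 54080416 and 73726672 fragments, so that 1 fragment on a transcript of 1 kb was worth between 0.0136 and 0.0185 FPKM. The B cell marker Pax5 measured 162.8 to 200.2 FPKM in FO, 186.8 to 202.9 FPKM in BDL and 158.3 to 198.5 FPKM in MZ B cells, and markers of T cells summed to at most 2.48 FPKM in every library. Fcer2a, which encodes the CD23 used in the gates, was at 448 to 538 FPKM in FO, 389 to 476 FPKM in BDL and 26.05 to 34.5 FPKM in MZ B cells. BDL replicate 2 stood apart from the other libraries, with a root mean square deviation of 0.647 on the log2 scale from the mean of its subset over all rows tested, against 0.489 to 0.566 in the other 8. Results that rest on this library are therefore given with and without it.

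Averaged over the 9 libraries, all 41 genes reached the minimum of 0.1 FPKM and were tested among 13472 rows by limma on log2(FPKM + 0.1), with a fold change on that scale and a p-value adjusted over all rows. A gene is said to have risen or fallen where its adjusted p was under 0.05. The comparison asked how far the replication genes of the IgD-low BDL cells differ from those of their IgD-high FO counterparts and of MZ B cells. The BDL and MZ comparisons with FO share the FO libraries and are therefore not independent of each other.

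In BDL against FO, 15 of the 41 genes rose and none fell. This was 36.6% of the genes, where 6.43% of all rows rose and 1.75% fell. The genes that rose were Cdc6, Mcm2, Mcm3, Mcm5, Mcm6, Mcm7, Mcm10, Pole, Rrm2, Dut, Ung, Chaf1a, Uhrf1, Dtl and Clspn. At an unadjusted limma p under 0.05, 23 were higher and 1, Pold1, lower. All 3 BDL libraries lay above all 3 FO libraries for 27 genes and below them for 1 gene, Tk1, where this held for 23.3% and 10.7% of all rows. The median log2 fold change was 0.37 over the 41 genes and 0.04 over all rows. Without BDL replicate 2, 14 genes rose and none fell, where 725 of all 13472 rows rose and 201 fell. When the date in the titles was added to the fit as a replicate block, 20 of the 41 genes rose, where 14.6% of all rows did.

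In MZ against FO, 13 of the 41 genes rose and 4 fell, where 15.2% of all rows rose and 12.5% fell. The share that rose was 31.7% and the share that fell was 9.76%, the latter close to that of all rows. The 13 were Cdc6, Mcm10, Cdc45, Rfc2, Pole, Rrm2, Dut, Ung, Chaf1a, Chaf1b, Uhrf1, Dtl and Clspn, and the 4 that fell were Mcm5, Pold1, Prim1 and Rpa2. All 3 MZ libraries exceeded all 3 FO libraries for 16 genes and were below them for 6, against 24.2% and 21.9% of all rows.

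Set directly against MZ, BDL B cells had the higher level of 15 genes and the lower level of 2, where 15.6% of all rows were higher and 12.4% lower. The 15 were Mcm2, Mcm3, Mcm5, Mcm6, Mcm7, Rfc3, Rfc5, Pola1, Pold1, Prim1, Rpa2, Fen1, Lig1, Ung and Uhrf1, and the 2 were Rfc2 and Tk1. The libraries did not overlap for 21 genes that were higher and 2 that were lower in BDL, against 21.5% and 17.4% of all rows. Without BDL replicate 2, 12 genes were higher and 2 lower, where 2114 of all 13472 rows were higher and 1562 lower. In all, 23 of the 41 genes had their highest mean in BDL, 14 in MZ and 4 in FO.

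**Figure D1:**
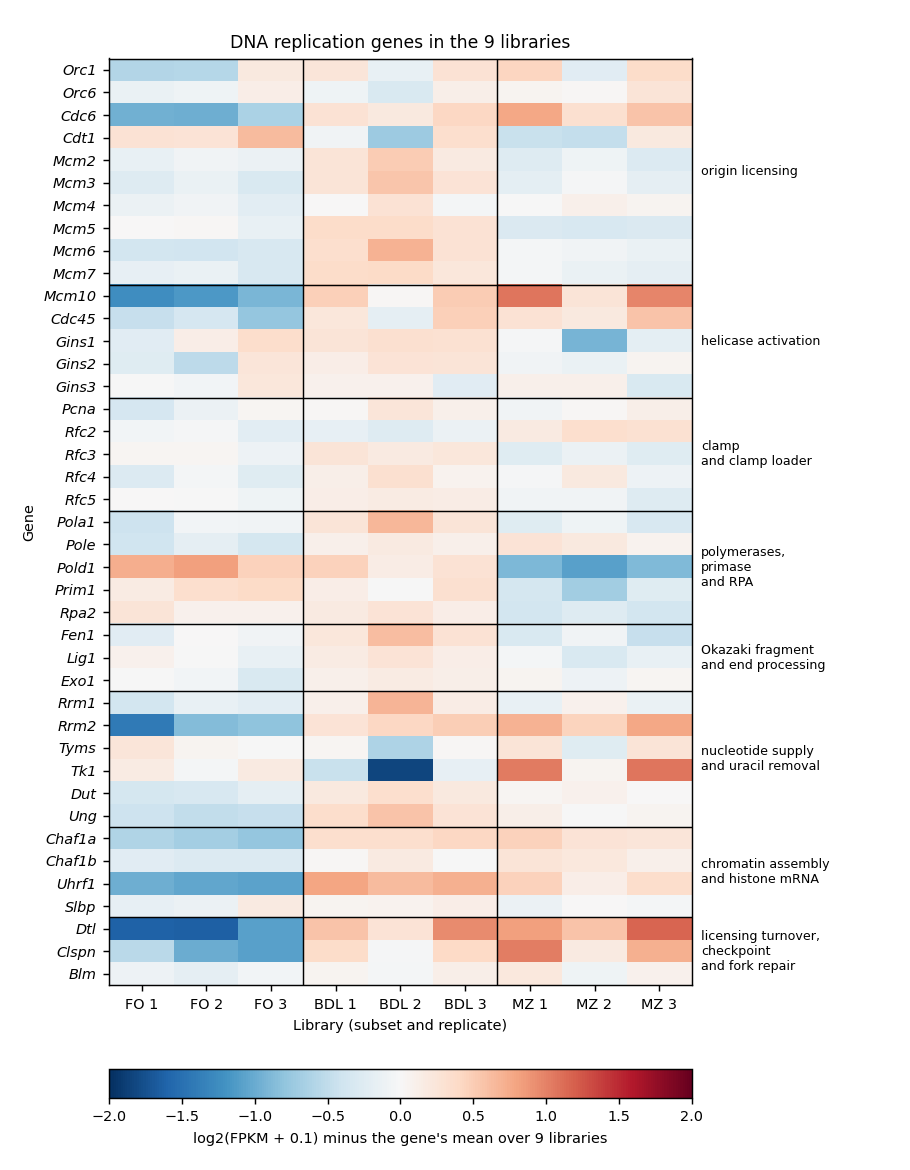
Each row is 1 of the 41 replication genes, grouped by role, and each column 1 of the 9 libraries. Colour gives log2(FPKM + 0.1) minus the gene's mean over the 9 libraries, red above and blue below. The median of the 41 values lay between -0.23 and -0.12 in the FO libraries, between 0.20 and 0.24 in BDL and between 0.00 and 0.05 in MZ.

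The median fold change was larger among the scarcer transcripts. Of the 6 genes with a mean under 1 FPKM over the 9 libraries (Orc1, Cdc6, Mcm10, Exo1, Dtl and Clspn), 4 rose in BDL and 4 in MZ, all but Orc1 and Exo1, and the median log2 fold changes of the 6 were 1.14 and 1.46. Among all rows of that level, 7.77% rose in BDL and 20.8% in MZ. Of the 15 genes with a mean over 10 FPKM, 5 rose in BDL and none fell, with a median of 0.22, where 5.12% of all rows of that level rose and 1.47% fell. In MZ 1 of the 15 rose and 3 fell, with a median of 0.09, where 10.2% and 15.2% of all such rows did. The 20 genes between these levels had medians of 0.38 in BDL and 0.16 in MZ.

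At least 2-fold differences from FO were seen for 7 genes in BDL, where 1.97% of all rows rose and 0.304% fell by that much, and for 8 genes in MZ, 7 of them higher, where 6.62% rose and 3.59% fell. In either comparison the 7 were higher than FO and were Cdc6, Mcm10, Rrm2, Chaf1a, Uhrf1, Dtl and Clspn, and in MZ Pold1 was lower by at least 2-fold. The 7 were scarce in FO B cells, with means of 0.0851 to 1.86 FPKM. Between BDL and MZ only Pold1 was higher in BDL by at least 2-fold and only Tk1 lower, where 3.77% and 5.04% of all rows were.

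**Figure D2:**
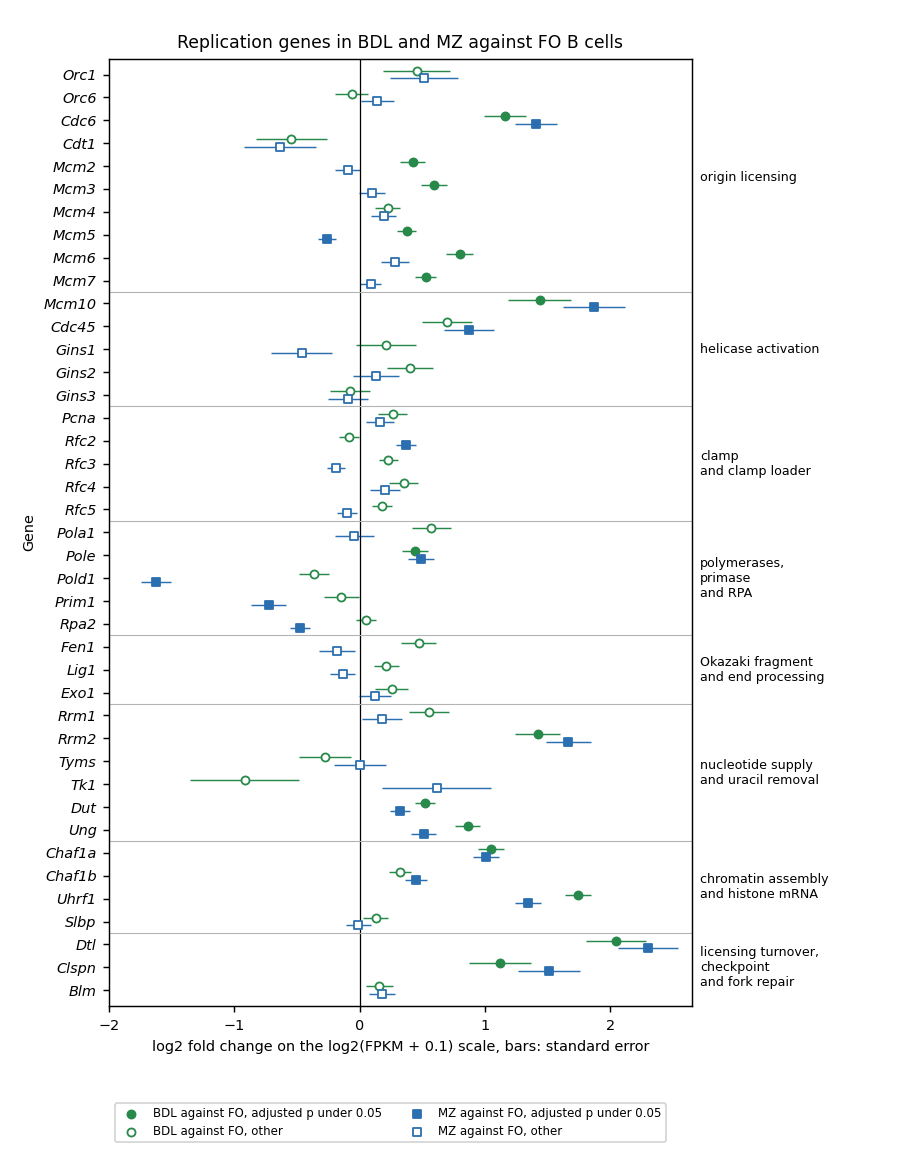
Fold changes of the 41 genes against FO B cells on the log2(FPKM + 0.1) scale, BDL as circles and MZ as squares, with the standard error as bars and filled symbols where the adjusted p was under 0.05. Dtl reached 2.05 in BDL and 2.30 in MZ, and Pold1 lay at -1.62 in MZ. Both comparisons use the same FO libraries.

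Origin licensing was represented by Orc1, Orc6, Cdc6, Cdt1 and the 6 subunits of the Mcm2 to Mcm7 ring. Of these 10 genes, 6 rose in BDL, where 6.43% of all rows did. Cdc6, the ATPase that recruits the ring to the origin, lies at chr11:98769115-98785254 in mm9. It measured 0.0916, 0.0906 and 0.141 FPKM in FO, 0.358, 0.328 and 0.398 FPKM in BDL and 0.535, 0.368 and 0.454 FPKM in MZ B cells. The FO libraries were all below the others, and their values correspond to about 26, 26 and 39 fragments. The log2 fold change was 1.16 ± 0.17 (SE, adjusted p = 0.00602) in BDL and 1.41 ± 0.17 (SE, adjusted p = 0.000431) in MZ by limma. BDL and MZ overlapped (log2 difference -0.25 ± 0.17 SE, adjusted p = 0.312).

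Orc1, the subunit of the origin recognition complex whose level is known to vary through the cell cycle, was also scarce, at 0.2202, 0.222 and 0.446 FPKM in FO, 0.467, 0.334 and 0.488 FPKM in BDL and 0.544, 0.312 and 0.519 FPKM in MZ B cells. The subsets overlapped and no difference passed (log2 fold change 0.45 ± 0.27 SE, adjusted p = 0.348 in BDL). Orc6, another subunit, was present at 5.15 to 6.22, 4.58 to 6.12 and 5.74 to 6.82 FPKM in FO, BDL and MZ and did not pass in any comparison. The ratio of Orc1 to Orc6 within a library was 0.0519 ± 0.0171 (SD, n = 3) in FO, 0.0800 ± 0.00731 in BDL and 0.0741 ± 0.0189 in MZ. Cdt1, which loads the ring together with Cdc6, was by contrast abundant, at 34.5, 34.1 and 43.7 FPKM in FO, 27.1, 17 and 35.8 FPKM in BDL and 20.8, 20.3 and 32.3 FPKM in MZ B cells. Its log2 fold change against FO was -0.55 ± 0.28 (SE, adjusted p = 0.283) in BDL, or -0.26 without BDL replicate 2 (adjusted p = 0.611). In MZ it was -0.64 ± 0.28 (SE, adjusted p = 0.139), and the adjusted p was 0.0191 with the title date as a replicate block.

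The ring subunits Mcm2 to Mcm7 had similar levels in FO B cells, where their means ran from 9.82 FPKM (Mcm5) to 13.0 FPKM (Mcm4), a ratio of 1.33. Summed, they measured 70.4, 72.9 and 67.6 FPKM in FO, 96.2, 111.9 and 92.4 FPKM in BDL and 73.8, 76.4 and 72.1 FPKM in MZ B cells. Each BDL library thus lay above every FO and MZ library, while FO and MZ overlapped. All but Mcm4 rose in BDL against FO, and the same 5 were higher in BDL than in MZ.

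Of the 6, Mcm6 had the largest fold change in BDL. It was measured at 12.02, 11.9 and 12.5 FPKM in FO, 19.7, 25.3 and 18.98 FPKM in BDL and 15.2, 14.8 and 14.2 FPKM in MZ B cells, with no overlap between BDL and either of the other subsets. Its log2 fold change was 0.80 ± 0.11 (SE, adjusted p = 0.00499) against FO and 0.52 ± 0.11 (SE, adjusted p = 0.00926) against MZ, and without BDL replicate 2, the highest of the 9, it was 0.67 against FO (adjusted p = 0.00261). Mcm3 had 11.4, 12.5 and 11.05 FPKM in FO, 16.3, 20.2 and 16.6 FPKM in BDL and 11.9, 13.5 and 12.01 FPKM in MZ B cells. Here too the BDL libraries were the highest 3 (log2 fold change against FO 0.59 ± 0.10 SE, adjusted p = 0.0132). Leaving out FO replicate 1 or FO replicate 3 took the adjusted p of Mcm3 past 0.05, to at most 0.0605.

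Mcm7, whose locus also holds 3 microRNAs and shares 321 exonic bases with Ap4m1 and 64 with Cops6, had 13.1, 13.4 and 11.7 FPKM in FO, 18.8, 19.04 and 17.1 FPKM in BDL and 14.3, 13.4 and 12.9 FPKM in MZ B cells. BDL was again above both other subsets, with log2 fold changes of 0.53 ± 0.08 (SE, adjusted p = 0.00852) against FO and 0.44 ± 0.08 (SE, adjusted p = 0.00599) against MZ. Mcm2 had 10.7, 11.4 and 11 FPKM in FO, 14.2, 16.9 and 13.5 FPKM in BDL and 9.89, 11.2 and 9.87 FPKM in MZ B cells. Its difference from FO was 0.42 ± 0.10 (SE, adjusted p = 0.03895), a call lost in 8 of the 9 fits that left out 1 library (every one but that without MZ replicate 2), with an adjusted p of at most 0.140.

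Mcm5 followed a pattern of its own among the 6, at 10.1, 10.2 and 9.08 FPKM in FO, 12.95, 12.98 and 12.3 FPKM in BDL and 8.23, 8.07 and 8.22 FPKM in MZ B cells. It rose in BDL (log2 fold change 0.37 ± 0.07 SE, adjusted p = 0.0197) and fell in MZ (-0.26 ± 0.07 SE, adjusted p = 0.0301), and the subsets stood in the order BDL, FO, MZ with no overlap between BDL and FO or between FO and MZ. Both calls against FO were fragile. The rise was lost without FO replicate 1, 2 or 3 or BDL replicate 1 (adjusted p at most 0.0702), and the fall without FO replicate 1 or 2 or any MZ library (at most 0.116). The difference between BDL and MZ (0.63 ± 0.07 SE, adjusted p = 0.000399) passed in every such fit. Mcm4, the exception, had 13.1, 13.6 and 12.3 FPKM in FO, 14.3, 17.5 and 13.97 FPKM in BDL and 14.3, 15.4 and 14.9 FPKM in MZ B cells, and its log2 fold change in BDL was 0.22 ± 0.10 (SE, adjusted p = 0.211).

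**Figure D3:**
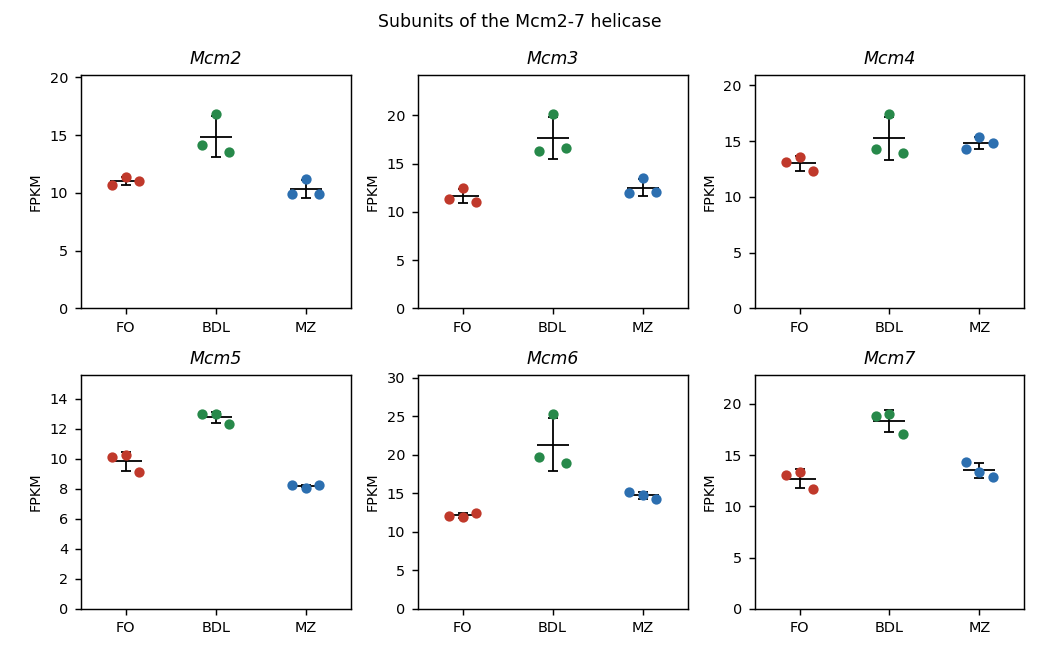
FPKM of the 6 ring subunits in each library (points) with the mean and SD of the 3 libraries of a subset (lines), on axes that start at 0. For Mcm2, Mcm3, Mcm5, Mcm6 and Mcm7 the 3 BDL libraries lie above all FO and MZ libraries, and for Mcm4 they overlap with MZ.

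Of the 5 genes that activate the helicase, 1 rose in BDL and 2 in MZ, where 6.43% and 15.2% of all rows rose. Mcm10, a scaffold needed to start unwinding (chr2:4910760-4933837 in mm9), measured 0.0675, 0.0776 and 0.1102 FPKM in FO, 0.4499, 0.301 and 0.462 FPKM in BDL and 0.7298, 0.372 and 0.6804 FPKM in MZ B cells. In FO this was about 20, 23 and 31 fragments, and every BDL and MZ library was higher. The FO mean of Mcm10, 0.0851 FPKM, was under the minimum of 0.1 FPKM, which the gene reached only through its BDL and MZ levels. The mean FPKM was 4.75 times that of FO in BDL and 6.98 times in MZ, and the log2 fold changes, which the added constant shrinks, were 1.44 ± 0.25 (SE, adjusted p = 0.0121) and 1.87 ± 0.25 (SE, adjusted p = 0.000784). In BDL the adjusted p was 0.0545 without FO replicate 1, and the call was also lost without FO replicate 2.

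Cdc45, the helicase cofactor, measured 1.097, 1.21 and 0.869 FPKM in FO, 1.83, 1.36 and 2.203 FPKM in BDL and 1.93, 1.78 and 2.36 FPKM in MZ B cells. All MZ libraries lay above those of FO, as did all BDL libraries, and the difference passed for MZ (0.88 ± 0.20 SE, adjusted p = 0.0121) but not for BDL (0.70 ± 0.20 SE, adjusted p = 0.0726). BDL replicate 2 was the lowest of its subset, and without it the BDL value was 0.87 (adjusted p = 0.0317). Cdc45 shares 209 exonic bases with Ufd1l on the other strand. Ufd1l measured 21.7, 20.9 and 19.0 FPKM in the means of FO, BDL and MZ. If the reads carry no strand, reads of Ufd1l could count for Cdc45, which was not tested. The GINS subunits Gins1, Gins2 and Gins3 had means of 1.25 to 2.26 FPKM, and none passed in any comparison. Gins2 overlaps Gse1 over 2758 of its 4097 exonic bases, so its level is uncertain.

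None of the 5 clamp and clamp loader genes passed in BDL against FO. Pcna had the highest level of the 41 genes, at 53.9, 62.5 and 69.8 FPKM in FO, 69.2, 80.6 and 72.9 FPKM in BDL and 64.6, 69.3 and 73.7 FPKM in MZ B cells, and its subsets overlapped (log2 fold change 0.26 ± 0.11 SE, adjusted p = 0.1996 in BDL and 0.16 ± 0.11 SE, adjusted p = 0.341 in MZ). Rfc2 was the exception in direction, with 42.3, 43.2 and 38.1 FPKM in FO, 39.02, 36.6 and 40.6 FPKM in BDL and 50, 55.3 and 54.4 FPKM in MZ B cells. It rose in MZ (0.37 ± 0.08 SE, adjusted p = 0.0101) and was lower in BDL than in MZ (-0.46 ± 0.08 SE, adjusted p = 0.00382). Its neighbour Lat2, 1940 bp away on the other strand, measured 90.1, 95.6 and 66.5 FPKM in the means of FO, BDL and MZ.

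Of the other loader subunits, Rfc3 and Rfc5 were higher in BDL than in MZ and Rfc4 did not pass in that comparison (log2 difference 0.15 ± 0.12 SE, adjusted p = 0.398). Rfc3 was higher in BDL (10.3 to 10.9 FPKM) than in MZ (7.701 to 8.37 FPKM, log2 difference 0.42 ± 0.07 SE, adjusted p = 0.00418), with FO at 8.48 to 9.35 FPKM. Rfc5 had 8.91 to 9.11 FPKM in BDL and 6.76 to 7.73 FPKM in MZ (0.28 ± 0.08 SE, adjusted p = 0.02995), a call lost in 7 of the 9 fits without 1 library, all but those without FO replicate 3 or MZ replicate 2 (adjusted p at most 0.0927). Rfc4 had 4.84, 5.75 and 4.95 FPKM in FO, 6.37, 7.38 and 6.17 FPKM in BDL and 5.78, 6.74 and 5.46 FPKM in MZ B cells. It passed in neither comparison with FO unless the title date was a replicate block, which gave adjusted p = 0.0121 for BDL and 0.0314 for MZ. Without the block and without BDL replicate 2, its highest library, the log2 fold change in BDL was 0.27 (adjusted p = 0.236). It shares 194 exonic bases with Eif4a2, which measured between 169 and 210 FPKM in the subset means, so reads of Eif4a2 could count for Rfc4.

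Among the 5 polymerase, primase and RPA genes, 3 fell in MZ and 1 rose, where 12.5% of all rows fell and 15.2% rose. Pold1, the catalytic subunit of polymerase delta, which copies the lagging strand (chr7:51788116-51804219 in mm9), had 39.8, 42.4 and 33 FPKM in FO, 33.2, 26.6 and 29.4 FPKM in BDL and 12.8, 11.3 and 12.95 FPKM in MZ B cells. MZ lay below both other subsets, with a mean that FO exceeded 3.11 times. The log2 fold change was -1.62 ± 0.12 (SE, adjusted p = 3.44e-05) in MZ against FO, and BDL exceeded MZ by 1.26 ± 0.12 (SE, adjusted p = 0.000157). Against FO the BDL value was -0.37 ± 0.12 (SE, adjusted p = 0.111). Spib, 675 bp from Pold1 on the same strand, had means of 162 FPKM in FO, 230 FPKM in BDL and 160 FPKM in MZ. Nr1h2, 767 bp away on the same strand, had means of 40.7, 38.04 and 35.9 FPKM. Whether either neighbour bears on the level of Pold1 was not tested.

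Pole, the catalytic subunit of polymerase epsilon of the leading strand, rose in MZ, with 1.53, 1.804 and 1.59 FPKM in FO, 2.22, 2.35 and 2.22 FPKM in BDL and 2.51, 2.36 and 2.15 FPKM in MZ B cells. The log2 fold change was 0.49 ± 0.10 (SE, adjusted p = 0.00848) in MZ and 0.44 ± 0.10 (SE, adjusted p = 0.0365) in BDL, although the BDL call was lost in 7 of the 9 fits without 1 library, all but those without MZ replicate 2 or 3 (adjusted p at most 0.143). Within a library the ratio of Pold1 to Pole was 26.1, 23.5 and 20.8 in FO, 14.98, 11.3 and 13.3 in BDL and 5.11, 4.77 and 6.02 in MZ, 3 ranges that did not overlap. Pola1, the catalytic subunit of polymerase alpha, had 1.797, 2.35 and 2.31 FPKM in FO, 2.92, 3.92 and 2.91 FPKM in BDL and 2.03, 2.28 and 1.92 FPKM in MZ B cells. It was higher in BDL than in MZ (0.61 ± 0.16 SE, adjusted p = 0.0205, lost without MZ replicate 1 or 3 with adjusted p at most 0.0720). Against FO its adjusted p was 0.0631, or 0.0196 with the title date as a replicate block. Without BDL replicate 2, its highest library, the log2 fold change against FO was 0.43 (adjusted p = 0.128).

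Prim1, the primase subunit that lays down RNA primers, had 7.41, 8.31 and 8.61 FPKM in FO, 7.23, 6.53 and 8.21 FPKM in BDL and 5.14, 4.01 and 5.53 FPKM in MZ B cells. Like Pold1, it was lowest in MZ, with a log2 fold change of -0.73 ± 0.14 (SE, adjusted p = 0.00549) against FO, and BDL exceeded MZ by 0.58 ± 0.14 (SE, adjusted p = 0.0163) (adjusted p = 0.0547 without BDL replicate 3). Rpa2, a subunit of the protein that coats single-stranded DNA, had 13.6, 12.05 and 12.04 FPKM in FO, 12.8, 13.7 and 12.5 FPKM in BDL and 8.77, 9.47 and 8.81 FPKM in MZ B cells. Its fall in MZ was -0.47 ± 0.08 (SE, adjusted p = 0.00284), and the MZ libraries were below all 6 others.

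The 3 genes for Okazaki fragment and end processing did not pass against FO in either subset. Fen1, the flap endonuclease, had 6.55, 7.76 and 7.38 FPKM in FO, 9.02, 11.8 and 9.44 FPKM in BDL and 6.23, 7.36 and 5.57 FPKM in MZ B cells. BDL was above FO and MZ without overlap, with log2 differences of 0.47 ± 0.14 (SE, adjusted p = 0.0835) against FO and 0.65 ± 0.14 (SE, adjusted p = 0.01) against MZ, and with the title date as a replicate block the adjusted p against FO was 0.0169. Without BDL replicate 2, its highest library, the log2 difference was 0.35 against FO (adjusted p = 0.173) and 0.53 against MZ (adjusted p = 0.0214). Fen1 overlaps Gm10143 over 1909 of its 2422 exonic bases. Lig1, the ligase of the lagging strand, was higher in BDL (6.37 to 7.099 FPKM) than in MZ (4.69 to 5.701 FPKM, 0.35 ± 0.10 SE, adjusted p = 0.03497), a call lost in 6 of the 9 fits without 1 library, those without FO replicate 2, any BDL library or MZ replicate 2 or 3 (adjusted p at most 0.0844). Exo1, an exonuclease, had 0.401, 0.388 and 0.308 FPKM in FO, 0.444, 0.466 and 0.449 FPKM in BDL and 0.427, 0.3695 and 0.417 FPKM in MZ B cells. The adjusted p of Exo1 was 0.273 for BDL and 0.551 for MZ.

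Of the 6 genes for nucleotide supply and uracil removal, 3 rose in BDL and 3 in MZ, where 6.43% and 15.2% of all rows rose. Ribonucleotide reductase is built of a large subunit, Rrm1, and a small subunit, Rrm2, whose transcript is known to be tied to S phase. Rrm2 (chr12:25393106-25399011 in mm9) had 0.666, 1.02 and 1.08 FPKM in FO, 2.37, 2.61 and 2.78 FPKM in BDL and 3.19, 2.68 and 3.41 FPKM in MZ B cells. All BDL and MZ libraries exceeded all FO libraries, with log2 fold changes of 1.42 ± 0.18 (SE, adjusted p = 0.00328) and 1.67 ± 0.18 (SE, adjusted p = 0.000233). Rrm1 was present at 7.77, 9 and 8.61 FPKM in FO, 10.7, 16.2 and 11.1 FPKM in BDL and 9.05, 10.7 and 9.14 FPKM in MZ B cells. It did not pass (log2 fold change 0.55 in BDL, adjusted p = 0.075, and 0.37 without BDL replicate 2), although with the title date as a replicate block it did against FO (adjusted p = 0.0174) and MZ (0.0283). The ratio of Rrm2 to Rrm1 was 0.108 ± 0.0201 (SD, n = 3) in FO, 0.211 ± 0.0453 in BDL and 0.326 ± 0.0649 in MZ.

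Dut, which removes dUTP, and Ung, which cuts uracil out of DNA and also acts in antibody diversification, both rose in both subsets. Ung had 2.18, 2.06 and 2.102 FPKM in FO, 3.796, 4.42 and 3.58 FPKM in BDL and 3.19, 2.93 and 3.04 FPKM in MZ B cells, in the order FO, MZ, BDL with no overlap between neighbours. Its log2 fold change was 0.86 ± 0.10 (SE, adjusted p = 0.0025) in BDL and 0.51 ± 0.10 (SE, adjusted p = 0.00586) in MZ. The step from MZ to BDL (0.35 ± 0.10 SE, adjusted p = 0.0316) was lost in 8 of the 9 fits without 1 library, all but that without BDL replicate 3, with an adjusted p of at most 0.0843. Dut was at 5.1 to 5.73 FPKM in FO, 7.48 to 8.21 FPKM in BDL (0.53 ± 0.08 SE, adjusted p = 0.00714) and 6.52 to 6.904 FPKM in MZ (0.32 ± 0.08 SE, adjusted p = 0.0179), and the MZ call was lost without FO replicate 1 or 2 or MZ replicate 1 (adjusted p at most 0.0744).

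The salvage enzyme thymidine kinase, Tk1 (chr11:117676840-117687406 in mm9), and thymidylate synthase, Tyms, did not follow the other genes. Tk1 had 13.1, 11.4 and 13.2 FPKM in FO, 8.55, 3.21 and 10.4 FPKM in BDL and 24.1, 12.1 and 24.6 FPKM in MZ B cells. BDL libraries were all below those of FO and MZ, and replicate 2 was the lowest of the subset in both BDL and MZ. Tk1 was lower in BDL than in MZ (-1.53 ± 0.44 SE, adjusted p = 0.0316), and without BDL replicate 2 the value was -1.02 (adjusted p = 0.0408). This call was lost without any 1 of the FO libraries or without MZ replicate 1 or 3 (adjusted p at most 0.109), which left 1 gene lower in BDL in these fits. Neither Tk1 comparison with FO passed (-0.92 ± 0.44 SE, adjusted p = 0.244 in BDL and 0.61 ± 0.44 SE, adjusted p = 0.3502 in MZ), and without BDL replicate 2 the BDL value was -0.41 (adjusted p = 0.508). Tk1 shares 83 exonic bases with Afmid. Tyms had 16.3, 14.2 and 13.6 FPKM in FO, 14.1, 8.95 and 13.96 FPKM in BDL and 16.5, 11.6 and 16.5 FPKM in MZ B cells, again lowest in replicate 2 of BDL and MZ, and did not pass in any comparison. Its log2 fold change in BDL against FO was -0.28, or -0.06 without BDL replicate 2.

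Chromatin genes held the gene with the smallest adjusted p in BDL. Uhrf1, which binds hemimethylated DNA behind the fork and recruits the methyltransferase Dnmt1 (chr17:56442744-56462909 in mm9), had 1.94, 1.83 and 1.8 FPKM in FO, 6.82, 6.12 and 6.41 FPKM in BDL and 5.39, 4.29 and 5.01 FPKM in MZ B cells. Each subset was clear of its neighbours. The log2 fold change was 1.74 ± 0.10 (SE, adjusted p = 0.000128) in BDL and 1.35 ± 0.10 (SE, adjusted p = 3.81e-05) in MZ, and BDL exceeded MZ by 0.40 ± 0.10 (SE, adjusted p = 0.0224), a step lost without BDL replicate 1 or 3 or MZ replicate 3 (adjusted p at most 0.0775). The ratio of Uhrf1 to Dnmt1 was 0.0872 ± 0.00382 (SD, n = 3) in FO, 0.330 ± 0.0128 in BDL and 0.387 ± 0.0439 in MZ.

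Chromatin assembly factor 1 is represented by its large and middle subunits. Chaf1a (chr17:56179827-56206973 in mm9) had 1.11, 1.05 and 0.972 FPKM in FO, 2.23, 2.22 and 2.34 FPKM in BDL and 2.43, 2.13 and 2.06 FPKM in MZ B cells. BDL and MZ overlapped and both stood clear of FO, with log2 fold changes of 1.05 ± 0.10 (SE, adjusted p = 0.00119) and 1.01 ± 0.10 (SE, adjusted p = 0.000166). Chaf1a shares 144 exonic bases with Ubxn6 on the other strand. Ubxn6 measured 21.99, 25.4 and 16.6 FPKM in the means of FO, BDL and MZ. If the reads carry no strand, reads of Ubxn6 could count for Chaf1a, which was not tested. Chaf1b was at 2.99 to 3.11 FPKM in FO, 3.603 to 4.14 FPKM in BDL and 3.92 to 4.38 FPKM in MZ. It rose in MZ (0.45 ± 0.09 SE, adjusted p = 0.00624), and in BDL its adjusted p was 0.0635, or 0.0323 with the title date as a replicate block. Without BDL replicate 2, the highest of its subset, the log2 fold change in BDL was 0.26 (adjusted p = 0.119). Slbp, which binds the stem-loop of histone mRNAs, lay between 17.9 and 22.8 FPKM in all libraries and passed nowhere.

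The last group holds Dtl, the receptor of the ubiquitin ligase that removes Cdt1 during S phase, Clspn, an adaptor of the replication checkpoint, and Blm, a helicase of fork repair. Dtl (chr1:193361244-193399413 in mm9) had 0.167, 0.164 and 0.284 FPKM in FO, 1.12, 0.888 and 1.48 FPKM in BDL and 1.34, 1.12 and 1.74 FPKM in MZ B cells. On the log2 scale with the added constant this was the largest change from FO among the 41 genes in each subset (by mean FPKM, Dtl in MZ was 6.83 times FO and Mcm10 6.98 times), at 2.05 ± 0.24 (SE, adjusted p = 0.00266) in BDL and 2.30 ± 0.24 (SE, adjusted p = 0.00021) in MZ. The FO values stand for about 42, 41 and 69 fragments and the BDL values for about 264, 275 and 395. Clspn (chr4:126234179-126271147 in mm9) had 0.425, 0.284 and 0.259 FPKM in FO, 0.884, 0.654 and 0.907 FPKM in BDL and 1.45, 0.765 and 1.15 FPKM in MZ B cells. It rose in MZ (1.51 ± 0.25 SE, adjusted p = 0.00245) and in BDL (1.12 ± 0.25 SE, adjusted p = 0.0312), where the call was lost without FO replicate 2 or 3, BDL replicate 1 or 3 or MZ replicate 3 (adjusted p at most 0.115). Blm was between 2.12 and 2.81 FPKM throughout and did not pass.

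**Figure D4:**
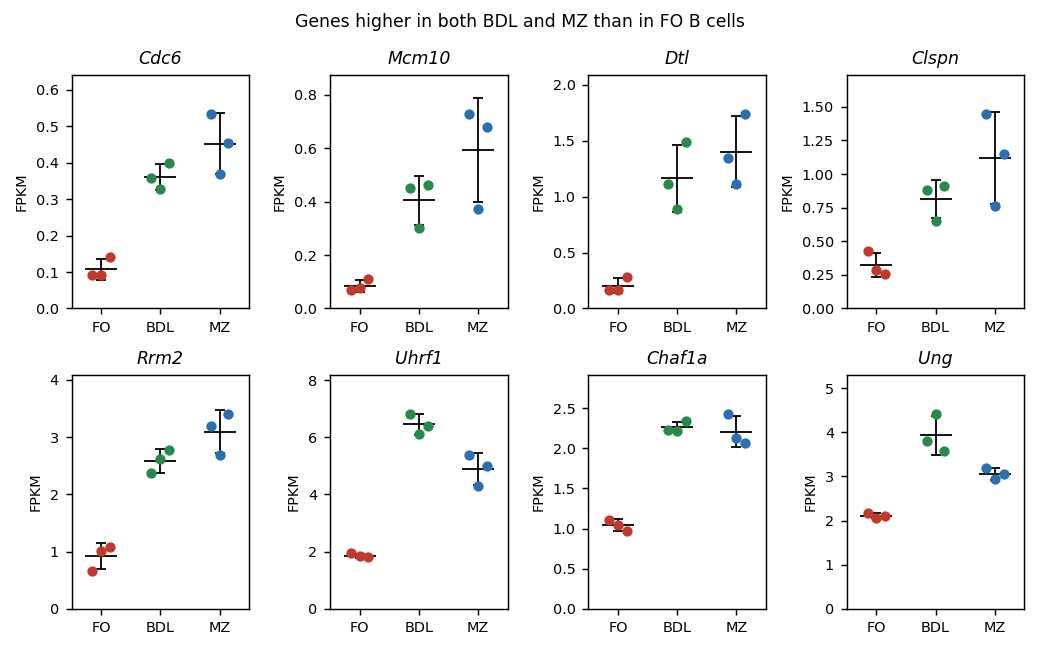
FPKM of 8 genes that rose in both BDL and MZ against FO B cells, by library (points), with the mean and SD of 3 libraries (lines) and axes from 0. In every panel all BDL and MZ points lie above the FO points. The lowest panel maximum is that of Cdc6, at 0.535 FPKM.

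To show what these genes share in sequence, the promoters of the 41 genes, whether or not they moved, were looked up in RefSeq on GRCm38.p6, as 250 bases before to 50 after each transcript start. The table has an entry for 35 of the 41 genes, with 40 promoters, and Exo1, Gins1, Gins2, Mcm4, Pole and Rfc2 were not matched. Searched on both strands, an E2F motif, spelled as TTTCCCGC, TTTGGCGC, TTTCGCGC or TTTGCCGC, occurred in 15 of the 40 promoters (37.5%) and in 2.27% of all 32851 promoters of the table. By gene, this was 15 of 35, or 42.9%, where 4.53% of the 9672 tested genes with an entry held it. The 15 were Cdc6, Cdt1, Clspn, Dtl, Gins3, Lig1, Mcm3, Mcm5, Mcm6, Mcm7, Orc1, Pola1, Pold1, Rfc3 and Uhrf1. Of the 14 matched genes that rose in BDL, 8 held the motif. Cdt1, Gins3, Lig1, Orc1, Pola1, Pold1 and Rfc3 held it and did not rise in BDL. The CCAAT box was found in 62.5% of the 40 promoters and 37.4% of all, and the letters TTTGAA, the cell cycle homology region, in 10.0% and 17.9%. These are matches of letters and were not tested as binding sites.

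The 160 bases before the start are printed for Mcm5, Mcm6, Cdc6 and Dtl, which rose in BDL and have an E2F motif there, and for Rrm2, which also rose and has none there. Letters of E2F and CCAAT motifs on either strand are in capitals. In GRCm38.p6 the stretches are chr8:75109349-75109508 (plus strand), chr1:128359706-128359865 (minus strand), chr11:98907991-98908150 (plus strand), chr1:191575545-191575704 (minus strand) and chr12:24708094-24708253 (plus strand).
Mcm5: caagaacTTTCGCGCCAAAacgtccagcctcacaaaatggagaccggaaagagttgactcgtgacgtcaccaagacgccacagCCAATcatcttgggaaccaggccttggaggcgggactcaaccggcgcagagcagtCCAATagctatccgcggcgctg
Mcm6: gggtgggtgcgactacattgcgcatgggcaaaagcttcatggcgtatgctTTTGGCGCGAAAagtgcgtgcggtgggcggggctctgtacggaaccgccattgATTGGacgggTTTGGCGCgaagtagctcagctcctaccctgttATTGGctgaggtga
Cdc6: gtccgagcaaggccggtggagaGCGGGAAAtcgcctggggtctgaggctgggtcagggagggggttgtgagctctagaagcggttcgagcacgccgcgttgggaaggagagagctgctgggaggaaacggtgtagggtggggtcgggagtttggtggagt
Dtl: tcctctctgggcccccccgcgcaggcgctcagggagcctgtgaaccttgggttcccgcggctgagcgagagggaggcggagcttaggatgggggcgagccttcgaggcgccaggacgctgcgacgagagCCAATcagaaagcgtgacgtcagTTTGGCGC
Rrm2: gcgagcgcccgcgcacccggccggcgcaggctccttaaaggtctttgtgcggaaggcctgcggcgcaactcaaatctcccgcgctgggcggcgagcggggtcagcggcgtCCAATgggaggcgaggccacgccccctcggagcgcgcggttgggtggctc
In Mcm5 the first capitals are 2 E2F motifs that overlap on opposite strands, 153 and 149 bases before the start. Mcm6 has the same arrangement at 110 and 106 bases and a further E2F motif at 47 bases. The E2F motif of Cdc6 begins 138 bases before the start and that of Dtl 8 bases before it. Mcm5 and Mcm6 also have 2 CCAAT boxes each, and Dtl and Rrm2 have 1. Tk1 and Tyms, which did not rise, have neither motif in their promoters of 300 bases, and neither do Dut and Ung, which rose in BDL. This says only that those letters are not in this window.

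Other genes of DNA replication were taken from a list of 64, of which 62 were in the table and tested. In BDL against FO, 13 rose and 1 fell, or 21.0% and 1.61%, where 6.43% and 1.75% of all rows did. With the title date as a replicate block 22 rose and 1 fell, where 14.6% and 4.93% of all rows did. In MZ against FO 11 rose and 11 fell, or 17.7% each, where 15.2% and 12.5% of all rows did. The median log2 fold change was 0.16 in BDL and -0.03 in MZ. The largest rises in BDL were those of Shmt1, which feeds thymidylate synthesis (2.25 to 2.56 FPKM in FO and 5.26 to 6.06 FPKM in BDL, 1.23 ± 0.09 SE, adjusted p = 0.000367), and Dctd, dCMP deaminase (0.606 to 0.701 and 1.41 to 1.75 FPKM, 1.15 ± 0.14 SE, adjusted p = 0.00302). The checkpoint kinase Chek1 (1.02, adjusted p = 0.0372) and the origin firing factor Ticrr (0.97, 0.002795) also rose. Donson, a replisome component, was the gene that fell, from 17.3 to 18.8 to 12.5 to 13.1 FPKM (-0.50 ± 0.07 SE, adjusted p = 0.00575). The number that rose in BDL dropped to 7 without FO replicate 1, FO replicate 2 or BDL replicate 1. In these fits 401, 384 and 460 of all 13472 rows rose, where 866 did with all 9 libraries.

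Geminin, Gmnn, the protein that blocks Cdt1 after origins have fired, was singled out after its values were seen. It had 3.14, 3.405 and 3.39 FPKM in FO, 5.201, 5.28 and 4.71 FPKM in BDL and 13.4, 15.97 and 10.5 FPKM in MZ B cells and rose in BDL (0.60 ± 0.14 SE, adjusted p = 0.0414) and further in MZ (1.95 ± 0.14 SE, adjusted p = 3.06e-05). Within a library the ratio of Cdt1 to Gmnn was 10.99, 10.03 and 12.9 in FO, 5.20, 3.22 and 7.60 in BDL and 1.56, 1.27 and 3.08 in MZ. The 3 ranges did not overlap, although Cdt1 by itself did not pass. The levels of Gmnn alone also did not overlap between subsets, so the separation of the ratios cannot be credited to Cdt1.

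The markers of dividing cells Mki67 and Top2a, outside the list, moved with the scarce genes. Mki67, the antigen of the Ki-67 antibody, had 0.517, 0.451 and 0.571 FPKM in FO, 2.99, 3.295 and 3.22 FPKM in BDL and 5.099, 3.53 and 4.89 FPKM in MZ B cells, with log2 fold changes of 2.42 ± 0.15 (SE, adjusted p = 0.000158) in BDL and 2.90 ± 0.15 (SE, adjusted p = 5.93e-06) in MZ. Top2a, the topoisomerase that untangles mitotic chromosomes, had 1.06, 1.08 and 1.36 FPKM in FO, 4.21, 5.404 and 4.91 FPKM in BDL and 5.91, 4.27 and 5.93 FPKM in MZ B cells (1.96 ± 0.17 SE, adjusted p = 0.000564 and 2.101 ± 0.17 SE, adjusted p = 4.34e-05). In these bulk libraries, more cells with a transcript and more transcript per cell cannot be told apart.

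**Figure D5:**
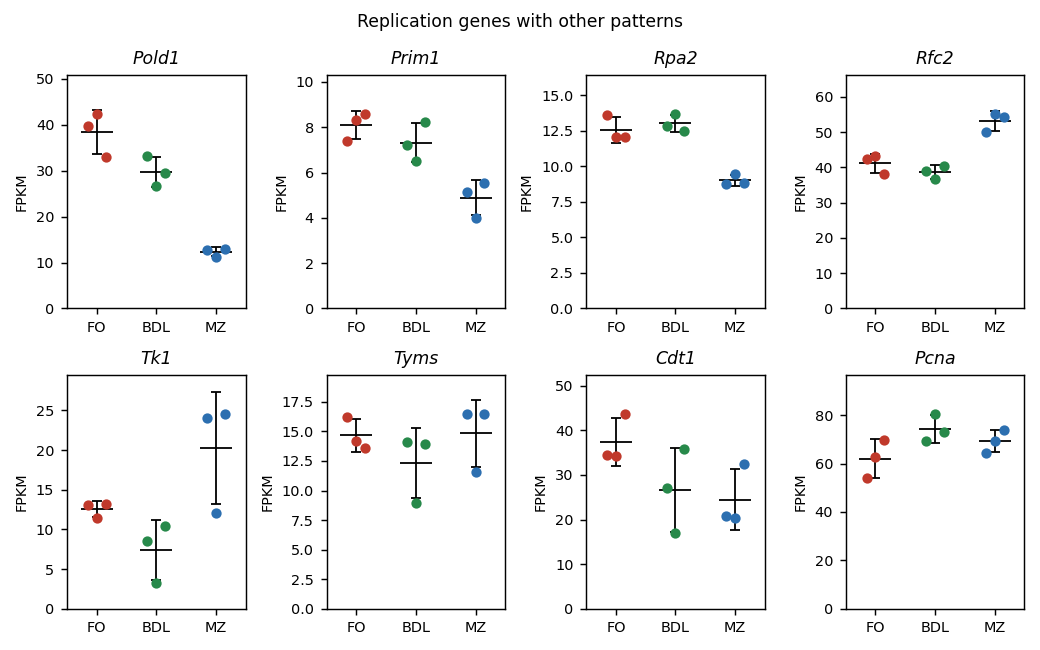
FPKM by library (points) with the mean and SD of 3 libraries (lines) for 8 genes that did not rise in BDL, on axes from 0. Pold1, Prim1 and Rpa2 are lowest in MZ, Rfc2 is highest in MZ, and Tk1 is lowest in BDL, where replicate 2 stands at 3.21 FPKM.

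Markers of other cell states moved with the BDL subset, and their part in the results was not tested. Of 5 markers that separate follicular from marginal zone B cells, Cd9 and S1pr3, both high in MZ, rose in BDL against FO, and Fcer2a, Cr2 and Cd1d1 did not pass. Cd9 measured 1.71 to 2.12 FPKM in FO, 6.89 to 7.66 FPKM in BDL and 65.2 to 79.1 FPKM in MZ (1.84 ± 0.11 SE, adjusted p = 0.000134 in BDL). S1pr3 measured 1.02 to 1.27, 1.998 to 2.25 and 41.6 to 78.5 FPKM (0.85 ± 0.21 SE, adjusted p = 0.0455 in BDL). The 5 summed to 604 to 707 FPKM in FO, 521 to 615 FPKM in BDL and 701 to 778 FPKM in MZ, and in MZ 4 rose and Fcer2a fell against FO. The sum thus adds changes in opposite directions. Of 6 transitional B cell markers, Cd93, Myb and Sox4 rose in BDL against FO, Vpreb3 did not pass, and Rag1 and Rag2 were at or under 0.0201 FPKM. Their sum ranged from 97.4 to 118 FPKM in FO, 145 to 175 FPKM in BDL and 23.1 to 29.3 FPKM in MZ. Vpreb3 made up most of it, with means of 104.4, 127.7 and 21.6 FPKM. Cd93 measured 3.097 to 5.29 FPKM in FO and 10.2 to 15.9 FPKM in BDL, both sorted as CD93 negative. Of 8 germinal centre markers in the table, 3 rose in BDL, Basp1 and Rgs13 among them. Bcl6 and Fas were among those that did not pass, and Gcsam was at most 0.0243 FPKM. The sums were 32.0 to 38.2 FPKM in FO, 33.5 to 36.2 FPKM in BDL and 10.1 to 12.04 FPKM in MZ. Bcl6 made up most of these sums. Rgs13 measured 0.172 to 0.268, 3.42 to 6.37 and 0.0676 to 0.251 FPKM in FO, BDL and MZ (3.85 ± 0.31 SE, adjusted p = 0.00047 in BDL).

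Of 7 plasma cell markers in the table, Sdc1 rose in BDL, and Prdm1, Xbp1, Irf4, Igj and Mzb1 did not pass. Tnfrsf17 was at most 0.0727 FPKM. Their sums were 284 to 329 FPKM in FO, 280 to 324 FPKM in BDL and 522 to 608 FPKM in MZ, where Prdm1 and Mzb1 rose. Irf4 and Mzb1 made up most of these sums. Sdc1 measured 1.22 to 1.67, 6.86 to 9.59 and 0.114 to 0.289 FPKM in FO, BDL and MZ. Hbb-b1 of 6 erythroid markers and Itgam of 6 myeloid markers rose in BDL. The erythroid sums were 2.39 to 6.03 FPKM in FO, 8.37 to 9.55 FPKM in BDL and 4.53 to 7.97 FPKM in MZ. The myeloid sums were 1.85 to 9.50, 2.497 to 9.44 and 3.21 to 11.3 FPKM, highest in replicate 3 of each subset. No T cell marker passed.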

How the data were processed

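The labels describe the reads as single-end and not strand-specific. Per the labels and the study's methods, the authors aligned them to mouse genome mm9 with TopHat2 2.1.0. FPKM were computed with Cufflinks, and 1 FPKM per gene and library was deposited. The methods section differs from the labels, with a library kit described as stranded and a separate file for each read direction of a sample. If the reads carry no strand, those of overlapping genes cannot be told apart. A figure legend names another strain, B10.PL. The authors' Cuffdiff comparisons were not used. Columns summed to between 446033 and 517208 FPKM and were not rescaled. Depth was estimated from low values of 1-transcript genes no shorter than 3000 nt, of which 70.9% to 78.8% lay within 0.1 of whole fragments (fragment numbers are approximate).

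Rows that averaged 0.1 FPKM or more were fitted with limma 3.58.1 in R 4.3.3 on log2(FPKM + 0.1), with all 9 libraries, the subset as the term and a trend, and p-values were adjusted by Benjamini-Hochberg over 13472 rows. The procedure was tested on simulated data. Sample titles carry a date, whose meaning the labels do not give, and libraries of different subsets with the same date were given the same replicate number and paired in the replicate block. The series' design text gives 3 independent sorts per subset. In the sample descriptions the names of the 3 FO libraries alone end in _G, and the titles of replicate 3 begin with Splenic. Anything that the ending _G marks could not be told apart from the FO subset. Deviations of same-date libraries correlated by 0.15, 0.05 and -0.05 between BDL and FO, 0.03, 0.02 and 0.02 between MZ and FO, and 0.11, 0.25 and 0.19 between BDL and MZ, across rows.

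The 41 genes, the gene lists and the tests were chosen with earlier results of these data known. All 41 genes are accounted for, with values per library for Mcm2 to Mcm7, Pcna and the 2 genes of each role with the largest change against FO (and for others where a result needed them). Of the other replication genes, the 5 with the largest change in each direction among those passing in BDL against FO are named, except a gene that is not reported here. Gene positions and overlaps are from GENCODE M1 on NCBIM37 (mm9) and promoters from RefSeq on GRCm38.p6. Figures were drawn with matplotlib. Alternatives covered the added constant, the minimum level, the libraries in the fit, the replicate block, scaling, the variance trend, repeated symbols and leaving out each library.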

Additional observations from a re-analysis of the deposited data

How the results depend on the processing

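No gene changed direction among the calls of the 41 genes under the 12 other settings and the 9 fits without 1 library, wherever the gene could be tested (Cdc6 and Mcm10 average under 0.5 FPKM, and Dtl and Clspn under 1 FPKM). Of the calls, 9 of 15 in BDL against FO, 13 of 17 in MZ against FO and 10 of 17 in BDL against MZ passed throughout; the cause of the losses was not tested, and fewer libraries also lower what a fit can detect. Leaving out 1 library gave 10 to 15 genes higher in BDL than FO and 0 lower, 12 to 14 higher and 3 to 4 lower in MZ than FO, and 10 to 14 higher and 1 to 3 lower in BDL than MZ. For the other replication genes these ranges were 7 to 15 and 1 to 1, 10 to 13 and 8 to 14, and 10 to 20 and 1 to 2. For all 13472 rows they were 384 to 1041 and 57 to 272, 1532 to 2421 and 1074 to 2164, and 1343 to 2528 and 1272 to 1576. The medians of the 41 genes ranged from 0.33 to 0.38, 0.12 to 0.20 and 0.12 to 0.17.

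With a fold of at least 2 required, 7 genes were higher in BDL and 7 in MZ than FO, 1 was lower in MZ, and 1 was higher and 1 lower in BDL than MZ. With the title date as a replicate block the other replication genes higher in BDL than FO numbered 22. A fit on the 6 libraries compared gave 1 of the 41 genes lower in BDL than MZ, and 10 other replication genes higher and 1 lower. That last count was also 1 with a minimum of 0.5 or 1 FPKM, no minimum, or quantile normalization. The median in BDL against FO was 0.27 with an added constant of 1, 0.32 with a minimum of 1 FPKM, 0.30 with upper quartile scaling and 0.30 with quantile normalization. In MZ against FO it was 0.105 with quantile normalization. In BDL against MZ it was 0.20 and 0.27 with a minimum of 0.5 and 1 FPKM, 0.057 with upper quartile scaling and 0.18 with quantile normalization.

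Scaling moved the balance of all rows: 866 rose and 236 fell in BDL against FO as deposited, 731 and 410 with upper quartile scaling and 795 and 429 with quantile normalization, while in BDL against MZ 2107 and 1670 became 1692 and 2127 with upper quartile scaling. Levels under 1 FPKM rest on few fragments per library.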

Other observations

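The other replication genes that fell in MZ against FO were mostly abundant ones, and they are given here as chosen after their values were seen. They made up 17.7% of the 62 tested, where 12.5% of all rows and 15.2% of rows averaging over 10 FPKM fell. The 11 were Dck, Dnmt1, Donson, Mcm9, Mcmbp, Nasp, Pold3, Rad17, Rad9a, Rfc1 and Rpa1. Rfc1, the large subunit of the clamp loader, had 28.9, 28.6 and 27.8 FPKM in FO, 28.9, 35.1 and 28.7 FPKM in BDL and 14.99, 16.3 and 13.5 FPKM in MZ B cells (-0.93 ± 0.10 SE, adjusted p = 0.000281). Rpa1, the large subunit of the single-strand binding protein of which Rpa2 is the middle one, had 34.5, 38.3 and 38.4 FPKM in FO, 37.3, 50.2 and 41.1 FPKM in BDL and 20.3, 24.4 and 21.4 FPKM in MZ B cells (-0.75 ± 0.12 SE, adjusted p = 0.002403). Rad9a, a subunit of the checkpoint clamp, had 36.7, 36.5 and 33.1 FPKM in FO, 38.5, 39.1 and 34.1 FPKM in BDL and 20.1, 22.97 and 17.8 FPKM in MZ B cells (-0.81 ± 0.11 SE, adjusted p = 0.000786). In each case the 3 MZ libraries lay below all FO and BDL libraries, the order also seen for Pold1, Prim1 and Rpa2. Among all rows, 21.9% had the 3 MZ libraries below all FO libraries.

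The maintenance methyltransferase Dnmt1 had 22.4, 21.9 and 19.7 FPKM in FO, 20.95, 17.8 and 20.01 FPKM in BDL and 12.6, 12.6 and 12.8 FPKM in MZ B cells, with a log2 fold change of -0.75 ± 0.09 (SE, adjusted p = 0.000322) in MZ and -0.12 ± 0.09 (SE, adjusted p = 0.409) in BDL. The histone chaperone Nasp had 14.6, 15.8 and 19.8 FPKM in FO, 17.3, 21.2 and 18.4 FPKM in BDL and 9.17, 10.9 and 10.9 FPKM in MZ B cells (-0.69 ± 0.14 SE, adjusted p = 0.00617 in MZ). The 11 genes that rose in MZ included Chek1, Dctd, Dna2, Gmnn, Hells, Pold4, Rnaseh2b, Shmt1 and Ticrr. Hells, a chromatin remodeller of replicating cells, had 2.54, 2.76 and 3.18 FPKM in FO, 5.46, 5.07 and 5.198 FPKM in BDL and 5.62, 4.71 and 4.95 FPKM in MZ B cells and rose in both MZ (0.83 ± 0.11 SE, adjusted p = 0.000756) and BDL (0.87 ± 0.11 SE, adjusted p = 0.00323). Cdca7, its partner, had 4.68, 5.199 and 4.88 FPKM in FO, 8.84, 8.88 and 7.75 FPKM in BDL and 5.38, 4.47 and 4.73 FPKM in MZ B cells and rose in BDL (0.78 ± 0.10 SE, adjusted p = 0.00363), while its log2 fold change in MZ was -0.02 ± 0.10 (SE, adjusted p = 0.922).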
